A study of Mus musculus with 8 samples.

Results

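The regions described are stretches of mouse chromatin that were called open in each of 8 ATAC-seq libraries and that lie more than 1 kb from both ends of every protein-coding gene. ATAC-seq inserts sequencing adapters into accessible DNA with a transposase, and for each library the authors deposited scored summits of its peaks. Windows reaching 150 bp to either side of a summit were merged across libraries into 68800 regions. Of these, 18733 held a summit of all 8 libraries and are called always open. Dropping chromosome 4 and everything within 1 kb of a gene end left 9798 far regions, 19.6% of the 50079 regions of any kind at that distance. The 7682 always-open regions within 1 kb of a gene end, 54.5% of the 14095 such regions, served as the comparison.

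The cells were AML246, a mouse acute myeloid leukaemia line grown in IMDM with 10% FCS and IL-3. Per the labels, doxycycline (Dox, 0.1 µg/mL) restored the transcription factor PU.1 from day 0 to day 12, and taking Dox away at day 12 brought the PU.1 knockdown back. The 8 groups of total viable cells, unless stated, were 4, 8 and 12 days on Dox, CD11b-high (MAC1 in the labels) viable cells sorted at day 12, 4, 8 and 12 days off Dox, and untreated cells of day 0. Each group held 1 library of 1 cell line, so no replicate error, test between conditions or p-value could be had. The labels' protocols mention ChIP, but the preparation they describe is that of ATAC-seq.

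PU.1, encoded by Spi1, is an ETS-family factor that binds purine-rich sites around a GAGGAA core and acts largely at enhancers, the regulatory elements that lie away from gene starts. It drives monocytic and granulocytic differentiation, and its loss or reduction promotes myeloid leukaemia in mice. CD11b, the integrin chain encoded by Itgam, marks maturing myeloid cells. Open chromatin near gene starts mostly marks promoters, while open chromatin farther away mostly marks enhancers, insulators and unannotated promoters.

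A region's score in a library was that of its highest summit, which the authors' peak caller gave as −log10 of a significance value (p or q). It was divided by that library's median over the 18733 always-open regions, and this scaled score is used throughout. Far regions and those near gene ends both enter that median. A rise of 1 kind can thus lower the scaled scores of the other, and opposite directions of the 2 kinds are relative to each other. Regions were chosen by whether a summit was called in every library, so being open carries no information here, and only shifts in score are described. Rising regions had a scaled score at least 1.5-fold higher at both day 4 and day 8 than at day 0, falling regions one at least 1.5-fold lower at both, and steady regions stayed within 1.2-fold at both. These classes were selected on the scores of day 0, 4 and 8, so their values in those libraries are a description, and the other 5 libraries give values the choice did not use.

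Of the 9798 far regions, 1127 (11.5%) overlapped a RefSeq promoter window all the same, which runs from 250 bases before to 50 after an annotated transcript start (build GRCm38.p6), so the start itself need not lie in the region. A window of a protein-coding gene was overlapped by 831 of them and one of a long non-coding RNA by 349, some regions counting under both. Only for these members could sequence be read. To show what such sequence looks like, windows are printed from 4 rising and 2 falling regions, picked after their values were seen. The rising ones hold GAGGAAGT, the 8 letters searched as a PU.1-like motif, in capitals, and the falling ones hold it on neither strand. The 4930573C15Rik window does hold the shorter core GAGGAA. These picks do not stand for their classes: 8 of 56 rising and 2 of 58 falling regions had the 8 letters in an overlapping window. Rassf5 encodes a Rap1 and Ras effector of leukocyte adhesion, Fgd3 an exchange factor for Cdc42, and Cdkn1a the cell cycle inhibitor p21, while Mirt1, F730311O21Rik and 4930573C15Rik are long non-coding RNAs. All are printed 5′ to 3′ on the strand of the transcript.
Rassf5 (chr1:131200136-131200435, minus strand, rising): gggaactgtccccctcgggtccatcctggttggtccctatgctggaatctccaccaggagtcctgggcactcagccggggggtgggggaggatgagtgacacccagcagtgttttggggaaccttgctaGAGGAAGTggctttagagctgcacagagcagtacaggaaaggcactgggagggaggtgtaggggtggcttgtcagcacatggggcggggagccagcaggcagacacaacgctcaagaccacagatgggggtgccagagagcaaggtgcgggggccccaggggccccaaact
Mirt1 (chr19:53464747-53465046, minus strand, rising): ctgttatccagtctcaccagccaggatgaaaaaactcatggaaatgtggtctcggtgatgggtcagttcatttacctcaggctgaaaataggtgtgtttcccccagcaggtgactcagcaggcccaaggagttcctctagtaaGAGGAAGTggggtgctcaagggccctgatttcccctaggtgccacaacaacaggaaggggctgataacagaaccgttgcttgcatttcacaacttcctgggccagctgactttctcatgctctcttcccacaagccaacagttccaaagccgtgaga
F730311O21Rik (chr1:132341667-132341966, plus strand, rising): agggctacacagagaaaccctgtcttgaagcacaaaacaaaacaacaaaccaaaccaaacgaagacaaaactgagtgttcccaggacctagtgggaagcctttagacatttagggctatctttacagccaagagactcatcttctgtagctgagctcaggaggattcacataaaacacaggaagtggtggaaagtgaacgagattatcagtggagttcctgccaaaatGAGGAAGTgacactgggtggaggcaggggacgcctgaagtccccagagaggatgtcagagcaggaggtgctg
Fgd3 (chr13:49309159-49309458, minus strand, rising): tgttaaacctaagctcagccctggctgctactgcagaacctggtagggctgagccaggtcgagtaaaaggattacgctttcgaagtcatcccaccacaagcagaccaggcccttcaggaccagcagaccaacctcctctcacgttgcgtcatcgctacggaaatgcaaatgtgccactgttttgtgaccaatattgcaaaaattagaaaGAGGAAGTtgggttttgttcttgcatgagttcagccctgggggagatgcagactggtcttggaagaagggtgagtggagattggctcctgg
4930573C15Rik (chr5:146703587-146703886, plus strand, falling): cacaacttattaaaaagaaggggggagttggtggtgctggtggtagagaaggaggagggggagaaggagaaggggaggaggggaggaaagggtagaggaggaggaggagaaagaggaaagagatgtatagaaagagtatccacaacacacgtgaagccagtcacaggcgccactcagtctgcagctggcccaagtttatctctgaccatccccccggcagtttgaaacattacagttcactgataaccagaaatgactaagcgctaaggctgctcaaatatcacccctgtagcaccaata
Cdkn1a (chr17:29093519-29093818, plus strand, falling): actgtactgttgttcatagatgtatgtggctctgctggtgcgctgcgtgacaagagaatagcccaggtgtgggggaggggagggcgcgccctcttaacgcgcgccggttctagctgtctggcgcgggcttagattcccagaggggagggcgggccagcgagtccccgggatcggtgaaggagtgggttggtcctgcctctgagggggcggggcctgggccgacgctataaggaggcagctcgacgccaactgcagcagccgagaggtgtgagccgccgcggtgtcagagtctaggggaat

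The region over the Rassf5 window (chr1:131200043-131200440) scored 0.592 at day 0, 1.45 at day 4, 1.77 at day 8, 1.35 in CD11b-high and 1.5 in total cells at day 12, then 1.26, 0.694 and 0.921 at 4, 8 and 12 days off. It was high throughout the Dox period and lower again from 8 days off. The falling region over the 4930573C15Rik window (chr5:146703734-146704132) ran the other way, with 1.99 at day 0, 0.288 at day 4, 0.406 at day 8, 0.383 in CD11b-high and 0.345 in total cells at day 12, then 1.5, 1.95 and 2.48 at 4, 8 and 12 days off. At Cdkn1a (chr17:29093500-29093937) the scores were 0.703 at day 0, 0.211 at day 4, 0.448 at day 8, 0.509 in CD11b-high and 0.266 in total cells at day 12, then 0.472, 0.630 and 0.697 at 4, 8 and 12 days off. The other 3 rising regions printed behaved like Rassf5: over the Mirt1, F730311O21Rik and Fgd3 windows day 0 was the lowest of the 8 scores (0.335, 0.398 and 0.525), and day 8 reached 1.57, 1.26 and 0.919. Both falling regions were near or above their day 0 score at 12 days off.

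GAGGAAGT, searched on both strands, lay in 12 of the 64 windows under rising regions (18.8%, exact 95% interval 10.1 to 30.5%). It lay in 2 of 65 windows under falling regions (3.08%, 0.375 to 10.7%), in 5 of 306 under steady regions (1.63%, 0.533 to 3.77%) and in 1052 of all 32851 windows of the table (3.20%). Windows of 1 region overlap, so matches were also counted by region. Of 56 rising regions at a promoter window, 8 had the letters in a window (14.3%, 6.38 to 26.2%), against 45 of all 1127 far regions at one (3.99%). A window need only overlap its region, so a match may lie outside the region, and parts of the region were not read. The general ETS letters CCGGAAGT lay in 2 of the 64 rising windows (3.13%) and 21 of the 306 steady windows (6.86%), with 3.89% of all windows holding them. The RUNX letters TGTGGT lay in 28.1% of rising, 12.1% of steady and 16.8% of all windows, and the E-box CAGCTG in 26.6% of rising, 11.1% of steady and 16.3% of all. The C/EBP letters TTGCNNAA came to 10.9% of rising and 10.8% of all windows, and the MYB letters AACNGTT to 4.69% and 4.45%. The AP-1 letters TGANTCA came to 12.5% and 7.81%, and the GATA letters AGATAA to 10.9% and 11.2%. In the 1343 windows under far regions of any class, AP-1 came to 5.73%, GATA to 6.18%, RUNX to 13.5% and E-box to 15.4%. By region, AP-1 lay at 8 of 56 rising regions (14.3%), as many as GAGGAAGT, against 6.57% of all 1127. In the same count RUNX came to 25% against 14.4%, E-box to 28.6% against 16.1%, GATA to 10.7% against 6.92% and C/EBP to 10.7% against 11.4%. None of these letter strings contains another, each was searched on both strands, and a match is a description of the sequence and not of binding.

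Far regions scored below regions near gene ends in every library. In bulk cells, weaker opening in every cell and opening in fewer cells cannot be told apart from such a score. Their median scaled score was 0.673 at day 0, 0.638 at day 4, 0.812 at day 8, 0.792 in CD11b-high and 0.808 in total cells at day 12, then 0.848, 0.776 and 0.731 at 4, 8 and 12 days off. Near gene ends the median was 1.65 at day 0, 1.75 at day 4, 1.30 at day 8, 1.38 in CD11b-high and 1.34 in total cells at day 12, then 1.21, 1.35 and 1.48 at 4, 8 and 12 days off. The gap narrowed from day 8 and widened again late off Dox: the ratio of near to far medians was largest at day 4 (2.75) and smallest at 4 days off (1.43). This ratio moves with every shift of the far regions given here, and what part the quality of single libraries has in it was not tested. Across libraries the always-open median before scaling ranged from 15.6 at day 12 to 31.8 at 4 days off, and the lists held 31957 to 51175 summits.

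**Figure D1:**
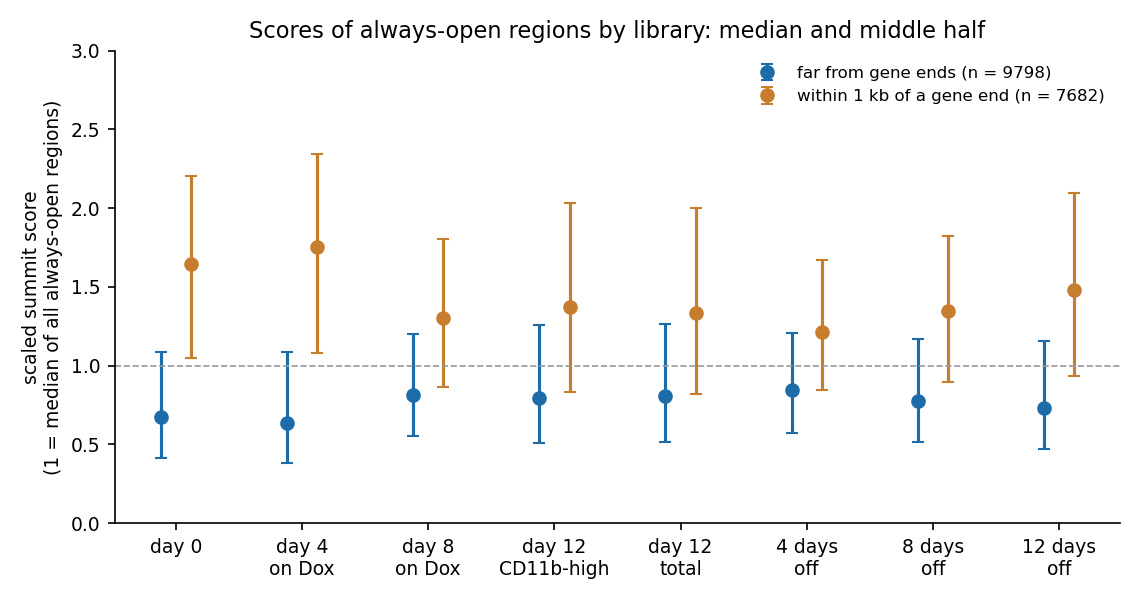
Scaled summit score (y axis, 1 is the median of all always-open regions) in the 8 libraries (x axis); points are medians and bars span the lower to the upper quartile, for 9798 far regions (blue) and 7682 regions near gene ends (orange). The blue medians lie between 0.638 and 0.848, and the orange ones between 1.21 and 1.75.

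Day 4 moved far regions in both directions and day 8 mostly upward. At day 8 over day 0, 1789 far regions (18.3%, 17.5 to 19%) were at least 2-fold higher and 427 (4.36%) at least 2-fold lower, where 11.2% and 4.64% of all always-open regions were. At day 4 over day 0, 714 (7.29%) were higher and 999 (10.2%) lower, against 4.62% and 6.89% of all always-open regions. Near gene ends the day 8 counts were 184 higher (2.40%) and 383 lower (4.99%), so regions of the 2 kinds differed most in the upward direction. By day 12, 1901 far regions (19.4%) were at least 2-fold higher than at day 0 and 689 (7.03%) lower, against 12.1% and 7.71% of all always-open regions. The median far region changed by 0.15 on the log2 scale at day 8 and by 0.20 at day 12, against −0.27 and −0.18 near gene ends. Both kinds enter the divisor, so these opposite signs are relative.

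The upward excess depended in size on how libraries were put on 1 scale. Of the far regions that moved 2-fold by day 8, 80.7% were higher, and 66.7% were when the 8 score distributions were made equal by quantile scaling. It was 94.6% when each library was divided by its median near gene ends instead, a scaling that moved the median of all always-open regions to 0.24 (log2) at day 8 and 0.28 at day 12, from −0.10 and −0.01. For day 12 over day 0 the higher share was 73.4%, with 64.8% and 89.6% under those scalings. At day 4 it was 41.7%, 50.9% under quantile scaling and 32.5% under scaling near gene ends, so the direction at day 4 is not settled by these data.

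After withdrawal the shift turned downward over time. Over day 12, 702 far regions (7.16%) were at least 2-fold higher and 479 (4.89%) lower at 4 days off, against 5.21% and 3.43% of all always-open regions. At 8 days off 676 (6.90%) were higher and 918 (9.37%) lower, against 5.78% and 6.06%. By 12 days off 734 (7.49%) were higher and 1370 (14.0%, 13.3 to 14.7%) lower, against 6.75% and 8.72%. Near gene ends 427 regions were higher (5.56%) and 193 lower (2.51%) at 12 days off, so there the larger count was upward, relative to the shared divisor. The higher share among moved far regions was 59.4% at 4 days off (51.2% under quantile scaling, 75.5% under scaling near gene ends), 42.4% at 8 days off and 34.9% at 12 days off (37.8% and 22.1%).

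The last and the first library of the course, both without Dox, differed less than day 12 did from either. At 12 days off over day 0, 874 far regions (8.92%) were at least 2-fold higher and 330 (3.37%) lower, against 5.81% and 2.86% of all always-open regions; of those moved, 72.6% were higher (57.2% under quantile scaling, 84.3% under scaling near gene ends). Ranking the 9798 regions by score gave a Spearman coefficient of 0.77 between 12 days off and day 0, 0.58 between 12 days off and day 12, and 0.53 between day 12 and day 0. The lowest was 0.50, between 4 days off and day 4, and the highest 0.81, between the CD11b-high cells of day 12 and day 8. These coefficients run over regions and also carry each library's depth and summit calling.

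Between the CD11b-high and the total cells of day 12 far regions differed in both directions. In CD11b-high over total cells of day 12, 428 regions (4.37%) were at least 2-fold higher and 525 (5.36%) lower, against 3.59% and 3.97% of all always-open regions, with a median change of −0.02 on the log2 scale. Both libraries come from 12 days on Dox. Single regions still stood apart. An Aox2 region (chr1:58296349-58296663) scored 1.51 in CD11b-high and 0.242 in total cells, and one 23168 bp from Epn2 (chr11:61602660-61603111) scored 0.200 in CD11b-high and 0.849 in total cells. In each case the odd value was the low one, since the other 7 libraries lay between 0.488 and 1.51 at Aox2 and between 0.311 and 1.27 near Epn2.

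**Figure D2:**
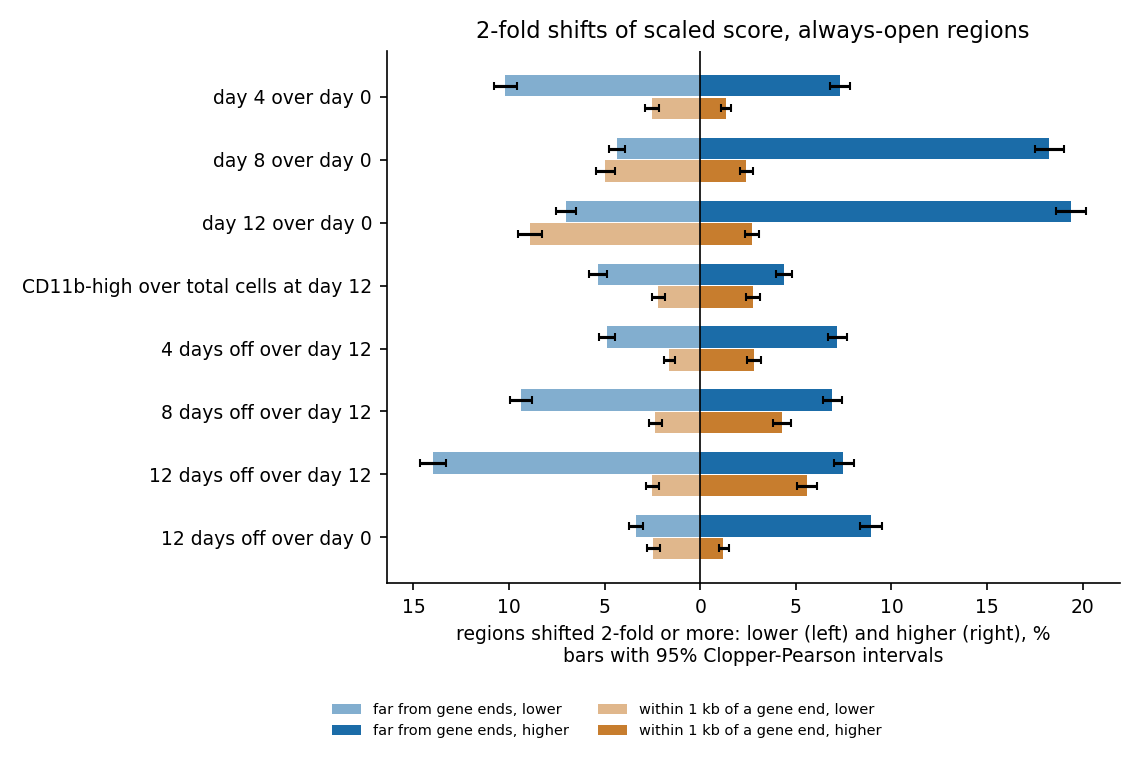
Share of always-open regions whose scaled score moved 2-fold or more (x axis, lower to the left, higher to the right, %) in 8 comparisons (rows), far regions in blue and regions near gene ends in orange, with 95% Clopper-Pearson intervals. The longest blue bars are higher at day 8 (18.3%) and day 12 (19.4%) and lower at 12 days off (14.0%).

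Rising regions numbered 1198 of 9798 (12.2%, 11.6 to 12.9%), against 7.75% of all always-open regions, and falling regions 515 (5.26%), against 4.2%. Near gene ends 159 of 7682 were rising (2.07%) and 214 falling (2.79%). On this shared scale rising regions were thus the larger class far from gene ends, and falling ones near them. Whether regions near gene ends fell in themselves cannot be told from it. Another 1075 far regions were steady (11.0%), against 1670 near gene ends (21.7%). Rising regions had a median score of 0.311 at day 0, 0.710 at day 4 and 0.933 at day 8, by choice.

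In the 5 libraries not used for the choice, rising regions stayed high while Dox was present and came down in steps without it. Their median was 0.892 in CD11b-high and 0.906 in total cells at day 12, then 0.770, 0.601 and 0.499 at 4, 8 and 12 days off. At day 12 they were higher than at 12 days off in 1003 of 1198 regions (83.7%, 81.5 to 85.8%), by a median of 0.79 on the log2 scale (0.73 to 0.84). Over all far regions the same difference was 0.10, with 55.1% higher. With the CD11b-high library in place of total cells the rising median was also 0.79, and it was 0.65, 0.83, 0.91 and 0.78 in 4 equal bins of the far regions by mean score, low to high. The intervals cover counting only, and neighbouring regions are not independent.

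Falling regions gave the mirror image, and by 4 days off their scaled scores were nearer to their later level than those of rising regions. This timing rests on 1 library, in which the median over all far regions was also highest, 0.848 against 0.731 at 12 days off. What part the scaling has in it was not tested. By choice their median was 0.379 at day 4 and 0.425 at day 8, against 0.879 at day 0, and it stayed at 0.5 in CD11b-high and 0.513 in total cells at day 12. Off Dox it was 0.721 at 4 days, 0.779 at 8 days and 0.765 at 12 days. Day 12 lay below 12 days off in 390 of 515 regions (75.7%, 71.8 to 79.4%), by a median of −0.54 (−0.63 to −0.47). Over all far regions it did in 44.9%. Between 4 and 12 days off the falling regions differed by a median of −0.08 (−0.16 to −0.01), against 0.56 (0.52 to 0.62) in rising regions and 0.10 over all far regions. Steady regions had medians between 1.07 and 1.11 in all 8 libraries, with a day 12 minus 12 days off median of 0.00 (−0.04 to 0.04). The falling class taken from day 4 alone gave a readout of −0.14 in place of −0.54.

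**Figure D3:**
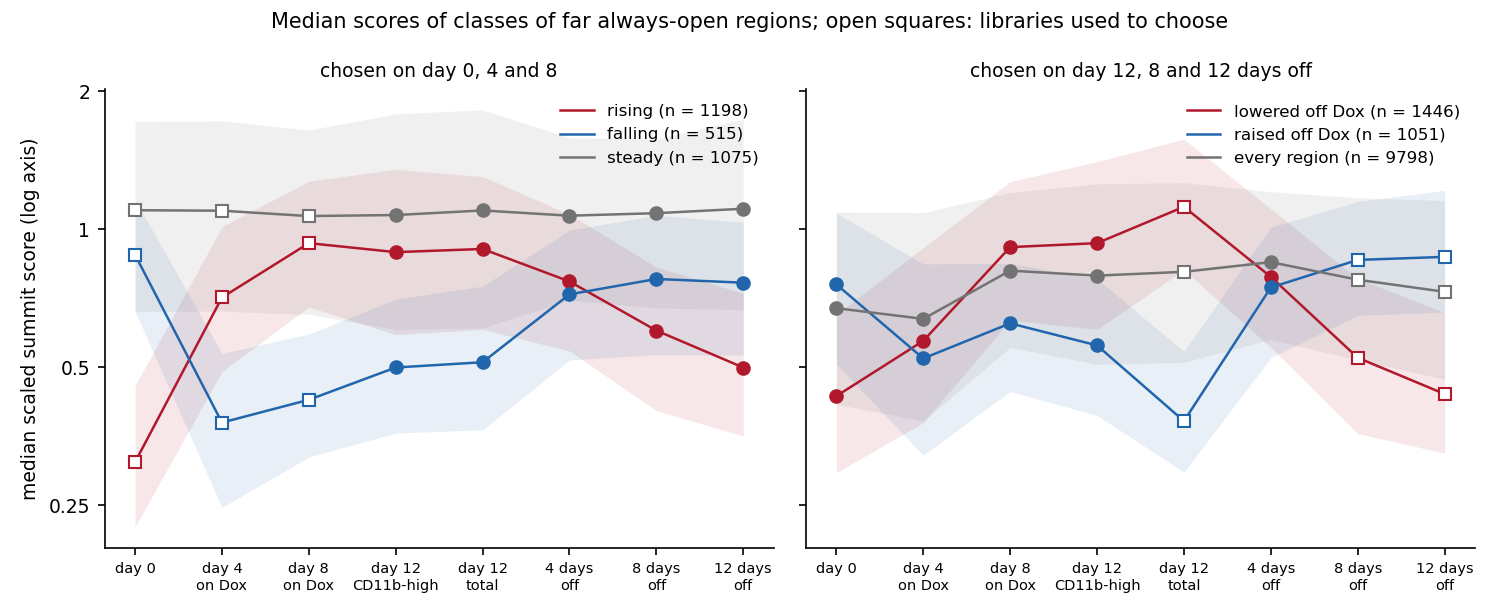
Median scaled score (y axis, log scale) of classes of far regions by library (x axis), with the range between quartiles shaded. Left, classes chosen on day 0, 4 and 8; right, classes chosen on day 12 and on 8 and 12 days off; open squares mark the libraries used to choose, filled circles the others. Filled circles of the rising class descend to 0.499 at 12 days off, and those of the falling class lie between 0.5 and 0.779. Lines join libraries for the eye, and the CD11b-high and total cells of day 12 are the same time point.

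The same regions were then chosen from the other end of the course. Regions lowered off Dox scored at least 1.5-fold lower at both 8 and 12 days off than at day 12, and regions raised off Dox at least 1.5-fold higher at both. There were 1446 lowered far regions (14.8%, against 9.82% of all always-open regions) and 1051 raised ones (10.7%, against 9.9%). Near gene ends the counts were 319 (4.15%) and 632 (8.23%). Read in libraries not used for that choice, lowered regions were higher at day 8 than at day 0 in 1272 of 1446 cases (88.0%, 86.2 to 89.6%), by a median of 1.0 on the log2 scale (0.92 to 1.06). Their day 4 minus day 0 median was 0.34 (0.28 to 0.39). Raised regions were lower at day 8 than at day 0 in 705 of 1051 (67.1%), by a median of −0.29, and the day 4 minus day 0 median was −0.41. Over all far regions these differences were 0.15 at day 8 and −0.04 at day 4, and 58.3% were higher and 41.7% lower at day 8 than at day 0.

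The pair of choices shares no library, so their overlap can be counted. Of the rising regions 506 were also lowered off Dox, which is 42.2% of the rising and 35.0% of the lowered ones, and 24 were raised off Dox (2.0% and 2.28%). Of the falling regions 173 were also raised off Dox, 33.6% of the falling and 16.5% of the raised ones, and 12 were lowered (2.33% and 0.830%). Among all far regions 14.8% were lowered, 10.7% raised, 12.2% rising and 5.26% falling.

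The 8 rising regions with the largest early gain were named only if their mean score over all 8 libraries reached the median of far regions. Being low at day 0, they could reach it only through later libraries, so that all 8 were also lowered off Dox is a description and not a result. They scored between 0.153 and 0.244 at day 0, between 1.08 and 2.29 at day 4, between 1.37 and 2.0 in CD11b-high and between 0.898 and 1.94 in total cells of day 12, and between 0.227 and 0.778 at 12 days off. Their deposited scores at day 0 lay between 3.73 and 5.94. The always-open median of that library was 24.3 and its smallest score 1.33, so these large gains start from weakly scored summits. The steepest of these regions lay 35192 bp from Atp1b3 (chr9:96399337-96399910), which encodes a beta subunit of the sodium pump. It scored 0.153 at day 0, 2.29 at day 4, 1.44 at day 8, 1.96 in CD11b-high and 1.66 in total cells at day 12, then 0.502, 0.482 and 0.279 at 4, 8 and 12 days off. The drop was in place by 4 days off and continued.

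Others of this group differed in how fast they gave way. A region inside Hk2 (chr6:82763958-82764540), the gene of the glycolytic enzyme hexokinase 2, scored 0.214 at day 0, 1.25 at day 4, 1.59 at day 8, 1.40 in CD11b-high and 1.29 in total cells at day 12, then 0.610, 0.588 and 0.778 off Dox. Inside Heatr1 (chr13:12411989-12412453), needed for ribosomal RNA synthesis, the scores were 0.190 at day 0, 1.23 at day 4, 1.29 at day 8, 1.37 in CD11b-high and 1.44 in total cells at day 12, then 0.922, 0.887 and 0.594 off Dox. A region with no gene within 100 kb (chr11:22665903-22666324) reached 2.0 in CD11b-high and 1.86 in total cells of day 12 and 0.227 at 12 days off, close to its 0.244 at day 0. The remaining 4 lay near Pebp4, near Agtr1b, which encodes an angiotensin receptor, inside Map1b, which encodes a microtubule-associated protein, and inside Cass4, which encodes a Cas-family adhesion scaffold.

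The 8 named falling regions, chosen with the same condition, were all raised off Dox, and the condition favours that outcome too, since they were low on Dox. They scored between 1.21 and 2.26 at day 0, between 0.116 and 0.677 at day 4, between 0.360 and 0.730 in CD11b-high and between 0.345 and 0.824 in total cells of day 12, and between 1.14 and 2.48 at 12 days off. The steepest was the region over 4930573C15Rik given above, 30876 bp from the deubiquitinase gene Usp12. Next among genes came a region inside Ets1 (chr9:32705824-32706477), which encodes another ETS factor, with 1.21 at day 0, 0.376 at day 4, 0.330 at day 8, 0.408 in CD11b-high and 0.375 in total cells at day 12, then 1.64, 1.44 and 1.59 at 4, 8 and 12 days off. Here every Dox library lay below 0.41 and every other library above 1.2. Another far region inside Ets1 (chr9:32695797-32696220) was neither falling nor raised off Dox. It scored 2.20 at day 0, 2.91 at day 4, 2.30 at day 8, 2.42 in total cells at day 12 and 1.72 at 12 days off. The other named falling regions lay inside Celf4 and Ppm1h, near Acsl1, which encodes an acyl-CoA synthetase, and at 3 places with no gene within 100 kb, 2 of them on chromosome 10.

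**Figure D4:**
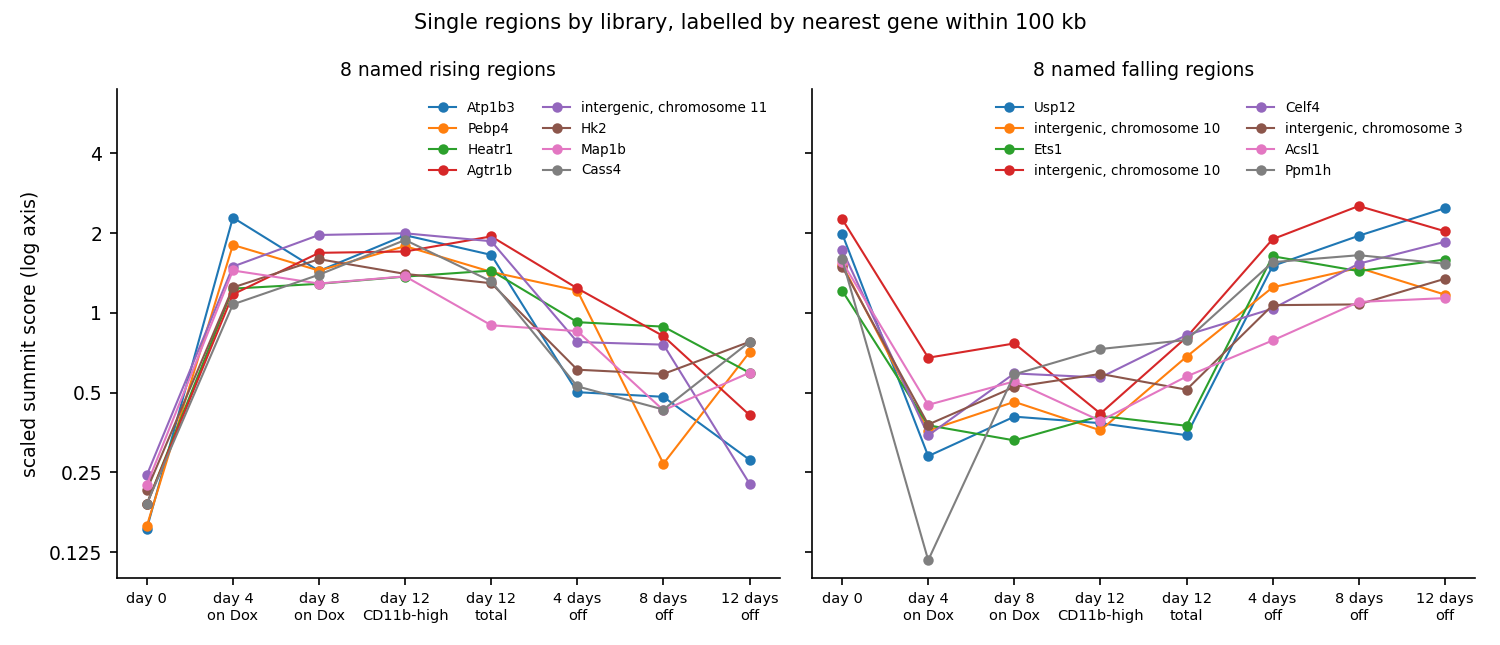
Scaled summit score (y axis, log scale) of the 8 named rising (left) and 8 named falling (right) far regions in each library (x axis), labelled by the nearest gene within 100 kb. At 12 days off the rising regions lie between 0.227 and 0.778 and the falling ones between 1.14 and 2.48.

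Regions named from the withdrawal side included the steepest late shifts. Inside Ank2 (chr3:126931933-126932455), the gene of an ankyrin that anchors membrane proteins, scores were 0.190 at day 0, 0.982 at day 4, 1.91 at day 8, 2.69 in CD11b-high and 2.96 in total cells at day 12, then 0.588, 0.320 and 0.299 off Dox. This region kept gaining to day 12 and had lost most of that by 4 days off. Near Pdia4 (chr6:47787964-47788642), which encodes a protein disulphide isomerase, scores were 1.65 at day 0, 2.07 at day 4, 0.934 at day 8, 1.03 in CD11b-high and 0.292 in total cells at day 12, then 0.833, 1.53 and 1.46 off Dox. It was raised off Dox without being in the falling class.

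The classes met within some genes that hold many far regions. Gse1 had the most, 15, of which 3 were rising and 1 falling, and Zfhx3, a large transcription factor gene, had 11, of which 4 were rising, 1 falling and 4 lowered off Dox. All 4 regions of Smg6, which encodes an endonuclease of nonsense-mediated decay, were rising. Only 1 of them was lowered off Dox, and their median 12 days off minus day 12 difference was −0.09 (log2). At 1 of them (chr11:74959570-74960608) the deposited day 0 score was 1.64, near the smallest of that library, 1.33. Iqsec1, an exchange factor gene for ARF6, held 4 rising and 1 falling region among 8, and the falling one (chr6:90716069-90716722) lay close to a rising one (chr6:90713091-90713484). The rising one scored 0.137 at day 0, 0.613 at day 4, 1.10 at day 8, 0.989 in CD11b-high and 1.54 in total cells at day 12, then 0.414, 0.286 and 0.201 off Dox. Its falling neighbour scored 0.964 at day 0, 0.247 at day 4, 0.605 at day 8, 0.247 in CD11b-high and 0.234 in total cells at day 12, then 0.673, 0.530 and 0.743 off Dox. Srgn, the gene of the granule proteoglycan serglycin, had 3 rising regions among 4. These genes were chosen for their counts.

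Shifts of neighbouring regions were only weakly related. Among pairs of adjacent far regions under 5 kb apart, the Pearson coefficient of the day 8 minus day 0 difference was 0.11 over 490 pairs, and it was 0.06 over 1802 pairs from 5 to 20 kb and 0.04 over 3892 pairs beyond 100 kb. The right neighbour of a rising region was itself rising in 9 of 64 pairs under 5 kb (14.1%) and in 66 of 445 pairs beyond 100 kb (14.8%), where 12.2% of far regions are rising.

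Genes of the lysosome and the phagocyte NADPH oxidase held the highest share of rising regions among the lists with more than 10 far regions. Of 17 far regions at 11 genes of this list, 8 were rising (47.1%) and 1 was falling, against 12.1% and 5.2% of the 9137 far regions assigned to any gene, with a median day 8 minus day 0 difference of 0.77 against 0.14. Among the genes with a rising region were Ncf1, Ncf4 and Cyba, which encode subunits of the oxidase that makes superoxide in phagocytes, Ctsd, a lysosomal protease gene, Tfeb, which encodes a regulator of lysosome biogenesis, and Npc1, a cholesterol transporter gene. Cybb, the catalytic subunit, had no far region. The list was drawn up with results of these data known, and 17 regions are few.

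The Cyba region (chr8:122429979-122430637) scored 0.483 at day 0, 0.888 at day 4, 1.09 at day 8, 1.04 in CD11b-high and 1.08 in total cells at day 12, then 0.592, 0.415 and 0.814 off Dox. It stayed high through day 12 and was below its day 0 score at 8 days off. Near Ncf1 (chr5:134232554-134232944) the scores were 0.695 at day 0, 1.18 at day 4, 1.14 at day 8, 1.21 in CD11b-high and 0.873 in total cells at day 12, then 1.34, 1.09 and 0.957 off Dox, and all 3 off-Dox scores were above that of total cells at day 12. Of the 8 rising regions of the list, 6 scored higher at day 12 than at 12 days off and 3 were in the lowered class.

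Other lists stayed nearer the share of all assigned regions. Of 51 far regions at 18 myeloid transcription factor genes, 8 were rising (15.7%) and 1 was falling. Of the rising ones 3 were assigned to Cebpb, the gene of a C/EBP factor of myeloid cells, and 2 to the AP-1 gene Fosl2, with 1 each at Zeb2, Junb and Egr1. Cebpb had 7 far regions in all, of which none was lowered and 1 raised off Dox. Their median difference was −0.01 (log2) at day 12 over day 0 and 0.40 at 12 days off over day 12. Zeb2 (chr2:44981621-44982022) scored 0.456 at day 0, 0.758 at day 4, 1.48 at day 8, 2.04 in CD11b-high and 1.86 in total cells at day 12, then 1.65, 1.60 and 1.05 off Dox. It was thus slow to come down. Inflammatory and cytokine genes had 3 rising regions and none falling among 25, monocyte and macrophage genes none rising and 1 falling among 8, stem and progenitor genes 2 rising and 1 falling among 20, and cell cycle genes 2 rising and 3 falling among 26. The median monocyte and macrophage region changed by −0.50 (log2) at day 12 over day 0 and by 0.48 at 12 days off over day 12, and 1 of the 8 was lowered and 2 were raised off Dox. The lowered one, against that median and 14220 bp from Adgre1, the F4/80 gene (chr17:57344051-57344672), scored 2.32 in CD11b-high and 1.12 in total cells of day 12, and between 0.412 and 1.13 elsewhere.

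Markers of other cell types gave small counts. The megakaryocyte list had 1 rising region of 9, T cell genes 1 of 9, mast cell and basophil genes 1 of 6 with 1 falling, neutrophil and granulocyte genes 1 of 5 with 1 falling, and cell survival genes 2 of 21. Erythroid genes (4 regions), B cell genes (2), interferon response genes (8), CTCF and cohesin genes (6) and genes of non-blood tissues (4) had neither, and eosinophil genes had 1 falling of 3. Dendritic cell and MHC class II genes had none rising and 1 falling of 16. Housekeeping genes had 1 of each among 11.

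Genes at the centre of the model had from 0 to 6 far regions assigned to each. The only one at Spi1 (chr2:91096507-91096924, inside the gene) was steady by the scores of day 0, 4 and 8, scoring 1.18 at day 0, 1.15 at day 4, 1.29 at day 8, 1.58 in CD11b-high and 1.14 in total cells at day 12, then 1.56, 1.29 and 1.56 off Dox. The Itgam region (chr7:128050689-128051147, 11722 bp away) scored 0.829 at day 0, 0.659 at day 4, 1.04 at day 8, 0.494 in CD11b-high and 0.574 in total cells at day 12, then 1.0, 1.55 and 1.35 off Dox, so it was raised off Dox. The 2 regions assigned to Myc lay 47621 and 89327 bp from it, and the nearer (chr15:62037806-62038158) was falling. It scored 0.498 at day 0, 0.217 at day 4, 0.198 at day 8, 0.446 in CD11b-high and 0.335 in total cells at day 12, then 0.431, 0.320 and 0.299 off Dox. None of the 6 at Runx1 was rising or falling and 1 was steady. The Kit region, 74421 bp from the gene, was neither rising nor falling, and no far region was assigned to Cebpa.

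A few far regions overlapped miRNA hairpins, and 1 of these fell on Dox and was raised off it. It covers Mir212 and the start of the neighbouring Mir132 hairpin (chr11:75173348-75173700, 2419 bp from Ovca2). These clustered miRNAs, best known from neurons, share the seed (bases 2 to 8, in capitals) of their 3p products. The third sequence is from Mir449c in Cdc20b, under a rising region (chr13:113035918-113036273), and has another seed. Sequences are from RefSeq.
mmu-miR-212-3p: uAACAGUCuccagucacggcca
mmu-miR-132-3p: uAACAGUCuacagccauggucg
mmu-miR-449c-5p: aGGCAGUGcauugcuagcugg

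The Mir212 and Mir132 region scored 1.63 at day 0, 0.762 at day 4, 0.682 at day 8, 0.790 in CD11b-high and 0.530 in total cells at day 12, then 0.835, 0.907 and 1.12 at 4, 8 and 12 days off. The return was thus partial. The Mir449c region scored 0.224 at day 0, 0.345 at day 4, 0.452 at day 8, 0.510 in CD11b-high and 0.555 in total cells at day 12, then 0.582, 0.242 and 0.299 off Dox, always low and lowest at day 0. ATAC-seq does not measure the miRNAs themselves.

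The median shift by day 12 grew with distance from genes, while the shares of rising and falling regions did not grow steadily with it. Rising regions made up 9.46% (8.27 to 10.8%) of the 2209 far regions within 5 kb of a gene end, 13.4% of 3412 from 5 to 20 kb, 12.4% of 3207 from 20 to 100 kb and 13.7% of 970 beyond 100 kb. Falling regions made up 4.35%, 5.01%, 6.08% and 5.46%. The median day 12 minus day 0 difference was 0.00, 0.19, 0.30 and 0.48 (log2) in the same 4 bins, so it was largest farthest from genes. Just inside the 1 kb limit, 259 regions at 1001 to 1250 bp had a median mean score of 0.804 and a median difference of 0.02, and just outside it 287 regions at 750 to 1000 bp had 0.883 and −0.13. The median score at day 0 was also lower with distance, 0.815, 0.670, 0.622 and 0.591 in these bins, and its part in the shares was not tested. Inside genes 12.4% of 5321 regions were rising (11.6 to 13.4%), and outside them 12.0% of 4477 (11.0 to 13.0%).

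Promoter windows held a larger contrast. Of the 1127 far regions that overlapped one, 4.97% were rising (3.77 to 6.40%), against 13.2% (12.5 to 13.9%) of the 8671 elsewhere, while falling shares were 5.15% and 5.27%. The median day 12 minus day 0 difference was −0.11 at these windows and 0.26 elsewhere. The median score at day 0 was 1.3 at the windows and 0.630 elsewhere. Put the other way, 22.6% of steady regions overlapped a window, 11.3% of falling and 4.67% of rising ones.

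**Figure D5:**
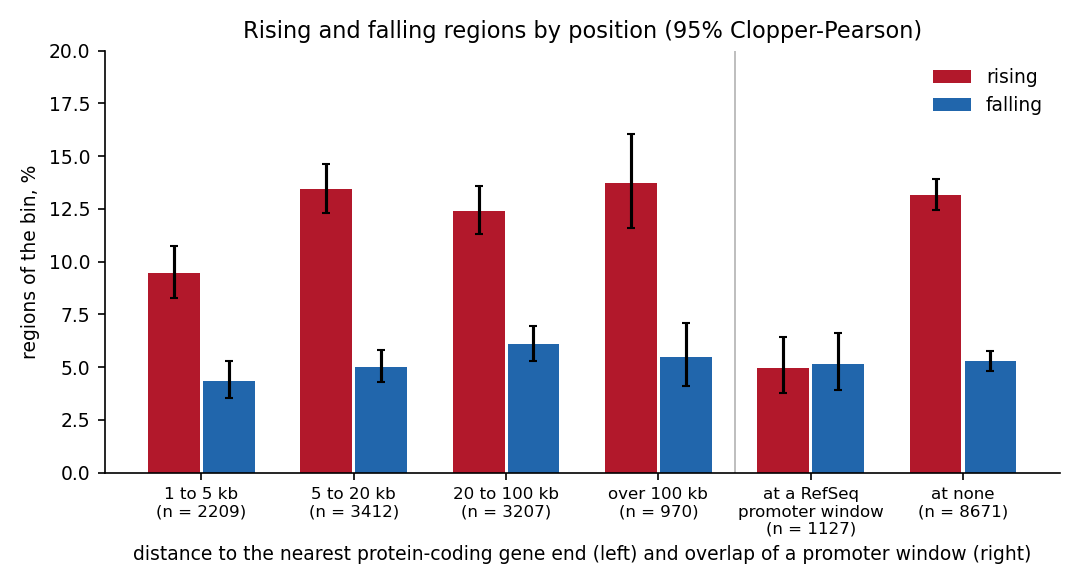
Rising (red) and falling (blue) far regions as a share of their bin (y axis, %, with 95% Clopper-Pearson intervals), by distance to the nearest protein-coding gene end and by overlap of a RefSeq promoter window (x axis, with the number of regions). The red bar is 4.97% at promoter windows and 13.2% elsewhere, while the blue bars stay between 4.35% and 6.08%.

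Apart from X, chromosomes differed little in direction at day 8 and day 12. Among those with at least 50 far regions the median day 12 minus day 0 difference ran from 0.02 on chromosome X to 0.32 on chromosome 1. At day 8 it ran from −0.14 on X to 0.31 on chromosome 12. For 12 days off over day 0 it ran from −0.16 on X to 0.18 on chromosome 1. X also had the lowest share of rising regions (4.47%, 8 regions), and chromosome 2 the highest (15.3%).

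Summits of a region lay close together across libraries, within limits the merging sets. Over the 8 libraries the strongest summits of a far region spanned a median of 98 bp, with at most 50 bp in 2304 regions (23.5%) and over 300 bp in 810 (8.27%). In total cells of day 12 the summit lay a median of 27 bp from that of day 0 over all far regions, 37 bp in rising, 32 bp in falling and 24 bp in steady regions.

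Of the 4 far regions with the highest mean score, 3 kept nearly the same score in every library before scaling, so their scaled values follow the divisor. The first, 29499 bp from Rpusd4 (chr9:35305298-35305615), had deposited scores from 235 to 264 and scaled scores from 8.30 to 15.5. The others lay at chr12:3109871-3110179, with no gene within 100 kb, and inside Chl1 (chr6:103649047-103649354). No filter for artefact-prone regions was applied here, and what these nearly constant scores reflect was not tested. The remaining one, inside Zc3h7a (chr16:11144002-11144323), did move, with deposited scores from 112 at 4 days off to 242 at day 4 and scaled scores from 3.52 at 4 days off to 11.3 at 12 days off. The region that moved least among those of at least median score lay 5152 bp from Adprhl1 (chr8:13213423-13213850), with scaled scores from 1.80 to 1.98 over the 8 libraries.

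Regions missed by a single library show where the set ends. Another 3858 regions far from gene ends were called in 7 libraries, with a median mean score of 0.443 against 0.760 for the always-open ones. The missing library was 12 days off in 966 of them, total cells of day 12 in 775, day 4 in 707 and CD11b-high in 671. Day 0 was missing in 525, 8 days off in 108, day 8 in 56 and 4 days off in 50. The 3 libraries with the lowest always-open medians before scaling, both of day 12 and that of 12 days off, were among the 4 missing most often. Day 4, also among them, had a higher median (27.1). The libraries with most summits were missing least often: 4 days off (51175), day 8 (47060) and 8 days off (41526). What part the length of a list has in this was not tested.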

How the data were processed

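Per the labels' protocols, ATAC-seq libraries were made with a Nextera kit, size selected and sequenced with paired reads. The submitters' processing notes name MACS2, Picard 2.14.0 and the build mm10. The aligner, the MACS2 version and the read depth were not given in the sources used here. For every summit the authors deposited a score, taken here to be on the −log10 scale of a significance value (p or q, unknown which): the smallest lay between 1.3 and 1.39, and −log10 of 0.05 is 1.3. It moves with depth, so it was scaled per library. Between 85 and 121 summits per library on other contigs were left out.

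Regions join summits no more than 300 bp from the next (Python 3.11.15, pandas 2.3.3, scipy 1.17.1). A region was assigned to the nearest of 21887 protein-coding genes within 100 kb in a RefSeq table of GRCm38.p6, the assembly also called mm10. The table gives gene spans without exons. Of 279 list genes 278 were in it, in 19 lists. The members, classes and lists were chosen with earlier results of these data known. Named regions were those of at least median mean score with the largest smaller-of-2 shift: 8 rising, 8 falling, 4 lowered and 4 raised; also 4 each at the extremes of level, range and CD11b sorting, up to 3 per list, and those at Spi1, Kit, Itgam, Cebpa, Runx1 and Myc. Genes with most regions, the lysosome regions beyond 3, the Cebpb, Zeb2, Fosl2, Junb and Egr1 regions, the miRNA regions and the regions at promoter windows were named after their values were seen. Some regions of the lysosome and oxidase list are not reported here. With 1 library per group no test between conditions was run; shares carry exact Clopper-Pearson and medians binomial order-statistic 95% intervals, for counting error only. The code for scaling and class calls was checked on simulated scores with known shifts. Motifs were searched only in RefSeq promoter windows, since a genome sequence was not used here.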

Additional observations from a re-analysis of the deposited data

How the results depend on the processing

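No paired analysis was possible because each group held 1 library and the labels give no replicate numbers. In 13 alternatives, 2 of them added after seeing the data (leaving out members at a RefSeq promoter window, and CD11b-high in place of total cells), 143 of 197 recomputed values stayed within 1.5 times a count or within the interval of a median; 54 moved further and no median changed sign. The readout of rising and falling regions is the median day 12 minus 12 days off difference, and that of lowered and raised regions the day 4 minus day 0 one. The cause was not tested except where fewer regions or a stricter rule set the value. Taking the mean of a region's summits, a 100 bp extension and centring on each chromosome moved none past those bounds. Beyond 5 kb from gene ends the readout of raised regions was −0.46. Quantile scaling made that −0.28 and gave 558 regions lower at day 4, 669 lower at day 8, both over day 0, and 526 higher at 12 days off over day 0. Scaling near gene ends gave 311 falling regions, 2721 higher and 155 lower at day 8 and 324 lower at day 12 over day 0; its readouts were 0.92 (rising), 0.20 (lowered) and −0.50 (raised).

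Keeping only far regions of at least median mean score leaves fewer regions by construction. It gave 483 rising, 153 falling, 613 lowered and 375 raised regions, with readouts of 0.85 (rising), 0.44 (lowered) and −0.30 (raised). Its 2-fold counts, higher then lower, over day 0 were 275 and 336 (day 4), 650 and 125 (day 8) and 782 and 242 (day 12); 92 and 94 for CD11b-high over total; 139 and 168, 174 and 287, and 232 and 547 at 4, 8 and 12 days off over day 12; and 270 and 87 at 12 days off over day 0. At 4 days off the larger count was thus lower here and higher over all far regions.

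Asking for 2-fold in both libraries gave 560 rising, 152 falling, 522 lowered and 386 raised regions, with readouts of 1.03 (rising), −0.77 (falling), 0.60 (lowered) and −0.55 (raised). Day 4 alone gave 2113 falling regions and readouts of 0.63 (rising) and −0.14 (falling). Day 8 alone gave 3005 rising and 1287 falling regions and readouts of 0.60 and −0.44. The 12 days off library alone gave 2592 lowered and 1801 raised regions, with readouts of 0.20 and −0.30. Depth per library is unknown, so a weak score cannot be told from a thinly sequenced one.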
